A study of Mus musculus with 12 samples.

Results

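The comparison set hippocampal RNA of 5xFAD mice against that of wild-type (WT) mice, with 3 libraries of each genotype, which are 6 of the 12 libraries in the series. Libraries were chosen by the genotype in their titles, and the description covers the 12556 autosomal genes that passed a filter on low counts, of 23181 autosomal genes in a table of 24421. All mice were 2 months old and had been injected with BrdU, a thymidine analogue taken up by dividing cells, before the hippocampus was dissected. The other 6 libraries, 3 labelled p75NTRko and 3 labelled 5xFAD/p75NTRko, carry a knockout of the p75 neurotrophin receptor without and with the 5xFAD transgenes. They entered the fit, and their own difference gives a second transgene comparison that shares no library with the first. Titles number the libraries as biological replicates. Strain, sex, animals per library and the time of day of dissection are not given in the sources used here.

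5xFAD mice express human transgenes, APP among them, with familial Alzheimer's disease mutations. They are driven by the neuronal mouse Thy1 promoter, so the model overproduces amyloid-β in neurons and is not a knock-in at the mouse genes. Amyloid-β is cut from the amyloid precursor protein by β- and γ-secretase, and is removed by microglia, by clearance into blood and by proteases such as insulin-degrading enzyme. The hippocampus holds granule cells of the dentate gyrus, pyramidal cells of fields CA1 to CA3, local GABAergic interneurons and glia. It lies beside the choroid plexus, thalamus and meninges, parts of which can come along in dissection.

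Each library gave 4857842 to 6660715 reads assigned to genes, by a method that reads the 3′ end of each polyadenylated transcript. Levels are CPM, counts scaled to a common library size, and differences are log2 fold changes of 5xFAD over WT with their standard error. A gene is called at an adjusted p under 0.05, after Benjamini-Hochberg adjustment of edgeR's quasi-likelihood test over 13065 genes. "Nominally higher" or "nominally lower" refers to an unadjusted p under 0.05 and is a description, not a call. Hippocampal markers were present in all 6 libraries, with Slc17a7, the vesicular glutamate transporter of excitatory neurons, at 901 to 1169 CPM and the CA1 marker Wfs1 at 90.3 to 119 CPM. Prox1, a granule cell transcription factor, stood at 2.69 to 7.81 CPM, and the CA3 marker Iyd at 1.46 to 5.89 CPM.

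Several properties separated the genotypes beside the transgenes. Xist, the RNA of the inactive X chromosome, was at 376 to 394 CPM in WT and at 1.53 to 3.58 CPM in 5xFAD, and the summed level of Y-linked genes was 0.332 to 0.747 CPM in WT and 169 to 201 CPM in 5xFAD. The 3 WT libraries therefore carried the Xist-high pattern and the 3 5xFAD libraries the Y-expressing pattern, so that transgene and sex chromosome expression cannot be told apart within these 6 libraries. In the second comparison all 3 5xFAD/p75NTRko libraries were Xist-high, as was p75NTRko replicate 1, while p75NTRko replicates 2 and 3 were Y-expressing. The pattern thus ran largely the other way there, so a difference between both transgene comparisons cannot be cleanly told apart from sex chromosome expression. Only p75NTRko held both patterns. A fit with the Xist pattern as a term therefore takes its effect from p75NTRko replicate 1 against replicates 2 and 3. Reads that fell on no counted gene feature made up 28.9% to 31.1% of reads in WT and 32.7% to 33.0% in 5xFAD. Whether these reads lay inside or between genes is not known from the counts. On the first principal component of autosomal log2 CPM, WT replicates 1 and 2 lay at -21.9 and -42.2 and 5xFAD/p75NTRko replicate 3 at -17.0. The other 9 libraries, WT replicate 3 among them, lay at 1.28 to 22.6. By rank correlation of counts, WT replicates 1 and 3 were the closest WT pair (0.9832) and replicates 2 and 3 the least close (0.9735). The 5xFAD pairs were closer, at 0.9874 to 0.9898.

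In all, 4 autosomal genes passed the threshold, 0.0319% of those tested: Ide and Thy1 rose, and Adra1b and Slc38a2 fell. Without the adjustment, 968 genes (7.71%) were nominally higher in 5xFAD and 774 (6.16%) nominally lower. The 3 libraries of a genotype lay wholly above those of the other for 1316 genes higher in 5xFAD (10.5%) and 1139 lower (9.07%). The median fold change over all autosomal genes was -0.0039 on the log2 scale, with a median standard error of 0.176. Between the receptor-labelled genotypes, with and without transgenes, no autosomal gene was called by edgeR, 3.51% were nominally higher and 3.02% nominally lower. Genes had the same sign in both transgene comparisons in 50.6% of cases. Leaving out 1 library, Ide was called in all 6 cases. Thy1, Adra1b and Slc38a2 were not called without WT replicate 1 or 2 or 5xFAD replicate 1 or 2, Adra1b and Slc38a2 also not without 5xFAD replicate 3, and without WT replicate 3 the count was 50.

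Ide, which encodes insulin-degrading enzyme, a metalloprotease that cleaves insulin and amyloid-β, spans chromosome 19 from 37268743 to 37334544 (GRCm38). Its level was 27.9, 26.6 and 28.5 CPM in WT replicates 1 to 3 and 59.3, 59.0 and 58.1 CPM in 5xFAD. The libraries of each genotype lay close together, and 5xFAD was 2.12-fold higher, a log2 difference of 1.08 ± 0.109 (edgeR adjusted p = 0.000905). In p75NTRko the level was 27.8, 24.8 and 26.9 CPM, and in 5xFAD/p75NTRko 36.3, 30.2 and 30.2 CPM. The transgene difference there was thus smaller at 0.28 ± 0.113 (unadjusted p = 0.0255), and the difference between both transgene differences was -0.81 ± 0.156, which did not pass adjustment (edgeR adjusted p = 0.172). With the Xist pattern of each library as a term in the fit, the Ide difference was 1.19 ± 0.207 but not called (edgeR adjusted p = 0.29, against 4.58e-12 to 0.29 over all alternatives).

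Thy1, a glycoprotein anchored on the surface of projection neurons, lies on chromosome 9 from 44043384 to 44048579. It was at 777, 940 and 753 CPM in WT and at 3977, 4018 and 1596 CPM in 5xFAD. Replicate 3 of 5xFAD stood well below the other two, yet above every WT library. The rise was 3.88-fold (log2 1.96 ± 0.305, edgeR adjusted p = 0.0369). The transgenes sit in an expression cassette made from the Thy1 gene, and whether reads from the cassette enter this count was not tested. On the receptor-labelled background the Thy1 difference was 2.05 ± 0.307, with 741, 739 and 688 CPM in p75NTRko and 1781, 4019 and 3180 CPM in 5xFAD/p75NTRko. App itself, the mouse counterpart of the APP transgene, was at 941, 708 and 1018 CPM in WT and 1104, 1072 and 1020 CPM in 5xFAD, a log2 difference of 0.26 ± 0.119 that did not pass (edgeR adjusted p = 0.353).

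Adra1b encodes the α1B-adrenergic receptor, a Gq-coupled receptor for noradrenaline, and spans chromosome 11 from 43774605 to 43901250. Its level was 74.1, 60.9 and 35.8 CPM in WT and 14.4, 19.5 and 13.3 CPM in 5xFAD. WT libraries were spread, and all 3 lay above all 5xFAD libraries. The fall was 3.61-fold (log2 -1.85 ± 0.297, edgeR adjusted p = 0.0369). On the receptor-labelled background the order of the means was the opposite, with 22.1, 17.5 and 17.0 CPM in p75NTRko and 39.1, 19.3 and 44.4 CPM in 5xFAD/p75NTRko. Those libraries overlapped through 5xFAD/p75NTRko replicate 2, and that difference was not called (log2 0.87, edgeR adjusted p = 0.711). The difference between both transgene differences, 2.73 ± 0.42, was the only one called among autosomal genes in that test (0.00796%, edgeR adjusted p = 0.0307). Thalamus and habenula markers were also lower in 5xFAD than in WT. In 5xFAD/p75NTRko their mean log2 CPM was 4.93, 3.39 and 3.88. Replicate 2 was lowest for both, while the markers were highest in replicate 1 and Adra1b in replicate 3. Within WT the markers were lowest (4.38) in replicate 1, where Adra1b was highest. The part of the thalamus and habenula list in the Adra1b difference was not tested beyond a fit with its level as a term. With the level of that list as a term, the Adra1b difference between 5xFAD and WT was -1.65 ± 0.361 and no longer called (edgeR adjusted p = 0.283, against 6.28e-07 to 0.949 over all alternatives).

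Slc38a2 encodes SNAT2, a sodium-coupled carrier of small neutral amino acids, and lies on chromosome 15 from 96687392 to 96699728. Levels of 329, 341 and 352 CPM in WT faced 218, 194 and 228 CPM in 5xFAD. Both genotypes were tight, and the fall was 1.6-fold (log2 -0.68 ± 0.109, edgeR adjusted p = 0.0369). In p75NTRko, without the transgenes, it stood at 275, 239 and 222 CPM, and in 5xFAD/p75NTRko at 223, 211 and 268 CPM, a difference of -0.07 ± 0.109. Of the 28 tested amino acid transporters, 1 was nominally higher and 2 nominally lower (median 0.01). The other lower one was Slc6a9, the glycine transporter GlyT1 of glia, at 32.3, 36.5 and 32.7 CPM in WT and 23.9, 16.0 and 20.4 CPM in 5xFAD.

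Below the threshold, the 12 higher and 12 lower autosomal genes with the smallest p-values, libraries that did not overlap and at least 10 CPM in the higher genotype were examined; they include the 4 called genes. Malat1, a long noncoding RNA of nuclear speckles, came closest to a call: 1761, 2458 and 2551 CPM in WT and 4511, 4605 and 4759 CPM in 5xFAD (log2 1.03 ± 0.175, edgeR adjusted p = 0.0508). In p75NTRko it was at 2435, 2589 and 2520 CPM and in 5xFAD/p75NTRko at 2882, 3090 and 1759 CPM, so all other libraries lay below the 3 of 5xFAD. Pou3f1, a POU-domain transcription factor of CA1 neurons, was at 75.5, 68.2 and 98.4 CPM in WT and at 135, 124 and 185 CPM in 5xFAD (edgeR adjusted p = 0.0508). Nefl, the neurofilament light chain of axons, was at 78.8, 74.7 and 96.1 CPM in WT and at 125, 140 and 140 CPM in 5xFAD (edgeR adjusted p = 0.057).

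Of the remaining higher genes, Psma4, a subunit of the 20S proteasome core, was at 43.5 to 56.7 CPM in WT and 76.7 to 86.7 CPM in 5xFAD. Xrn1, the 5′ to 3′ exoribonuclease that degrades decapped mRNA, went from 4.54 to 4.81 CPM in WT to 9.20 to 10.7 CPM in 5xFAD. Tcf4, a basic helix-loop-helix transcription factor, was at 888 to 945 CPM in WT and 1200 to 1283 CPM in 5xFAD. Golgb1 (giantin, a Golgi membrane protein), Pdap1, Ankrd12 and Elfn2 had log2 differences between 0.50 and 0.63. All 12 higher genes had adjusted p-values between 0.000905 and 0.0889. In the second transgene comparison 10 of the 12 were positive and 5 nominally higher.

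Among the 12 lower genes, Hrh1, the histamine H1 receptor, had the next largest difference after Adra1b: 18.1, 12.5 and 8.96 CPM in WT and 3.40, 4.88 and 4.63 CPM in 5xFAD (log2 -1.62 ± 0.36). Pdp1, a phosphatase that activates pyruvate dehydrogenase, was at 313, 265 and 225 CPM in WT and 135, 157 and 148 CPM in 5xFAD. Vgf, the precursor of neuropeptides released by neurons, was at 224, 178 and 161 CPM in WT and 126, 115 and 128 CPM in 5xFAD. Kcnj10, the inward-rectifier potassium channel of astrocytes and oligodendrocytes, went from 67.4 to 74.7 CPM in WT to 43.0 to 53.0 CPM in 5xFAD. Klhl18, Tppp3 and Pdia6 complete the set, with Rps10 and Rps12, ribosomal protein genes whose near-identical copies in the genome make their counts uncertain. Adjusted p-values of the 12 lay between 0.0369 and 0.119. In the second transgene comparison 7 of the 12 were positive, 3 of them nominally higher, and 5 were negative, 1 of them nominally lower.

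**Figure D1:**
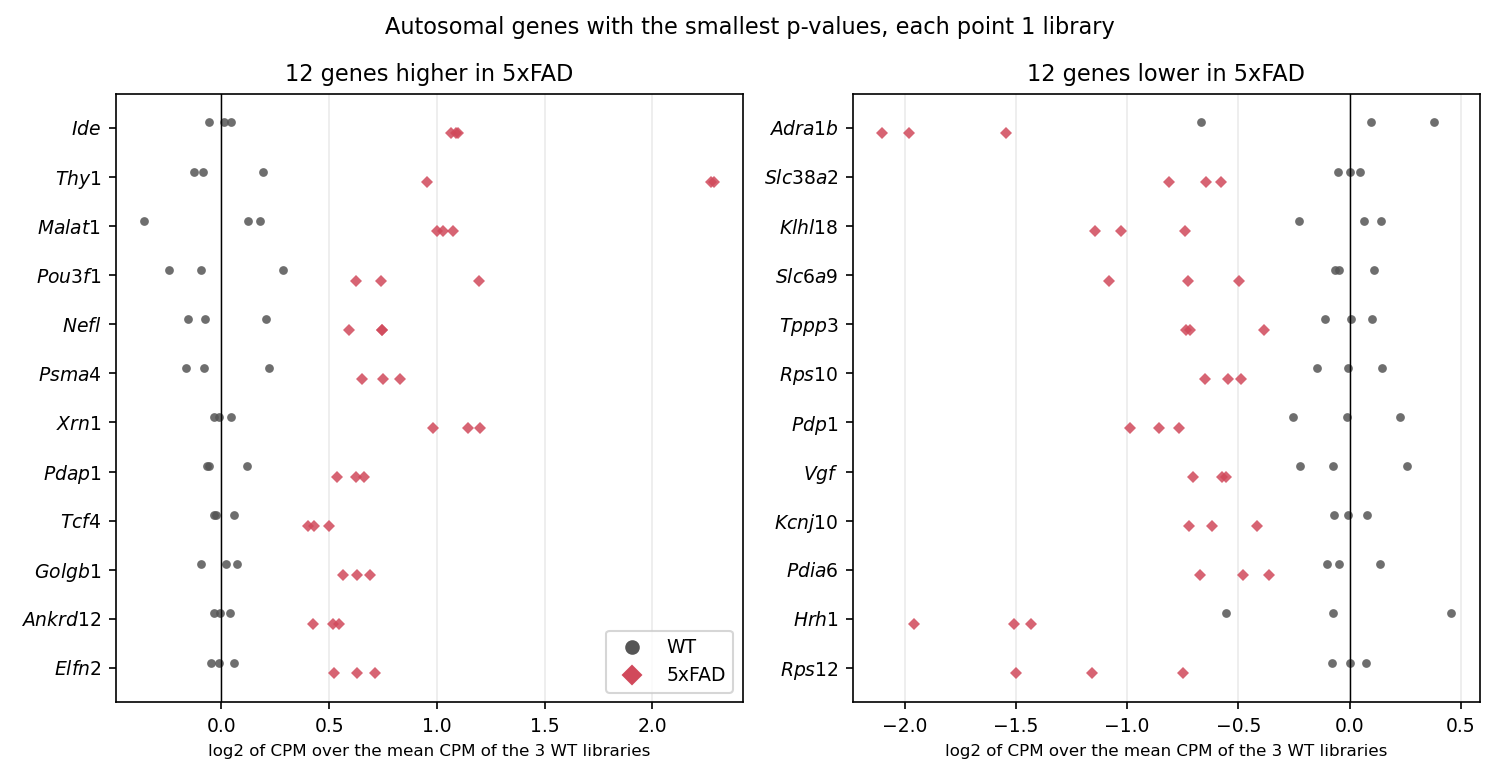
Levels of the 12 higher (left) and 12 lower (right) autosomal genes, as log2 of CPM over the mean of the 3 WT libraries, with circles for WT and diamonds for 5xFAD libraries. Genotypes do not overlap for any gene, as the selection required, and Ide and Slc38a2 show a tight group in each genotype while Thy1 replicate 3 of 5xFAD lies apart from replicates 1 and 2.

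Gene lists by cell type and function, 64 in all, of which 62 had a tested member, were described by their counts and medians, to be read against the 7.71% nominally higher and 6.16% nominally lower among all genes, and against 10.5% and 9.07% for libraries that did not overlap. The nominal shares over all genes moved with the setting. They were 2.53% higher and 2.28% lower with the Xist pattern of each library as a term, and 5.72% and 4.74% with the thalamic level. Leaving out 1 library, they ran from 5.12% and 4.05% (without WT replicate 2) to 11.5% and 9.76% (without WT replicate 3), and were 6.39% and 4.88% without WT replicate 1, 5.45% and 4.09% without 5xFAD replicate 1, 5.43% and 4.67% without 5xFAD replicate 2 and 5.87% and 4.29% without 5xFAD replicate 3. A list's count under one of these settings is to be read against the share of the same setting. The shares also differed by level, with autosomal genes divided into 5 bins by level. In the lowest bin (median 2.84 CPM) 4.94% were nominally higher and 3.82% lower, and in the highest (median 166 CPM) 11.2% and 8.36%. For libraries that did not overlap the shares were 7.84% and 7.21% in the lowest bin and 14.1% and 10% in the highest. Shares at the level of each list were not computed, so the shares over all genes can be too low for lists of abundant genes. In tissue RNA, fewer cells of a type and less RNA per cell cannot be told apart. A member was called in 4 of the lists, through the genes described above.

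**Figure D2:**
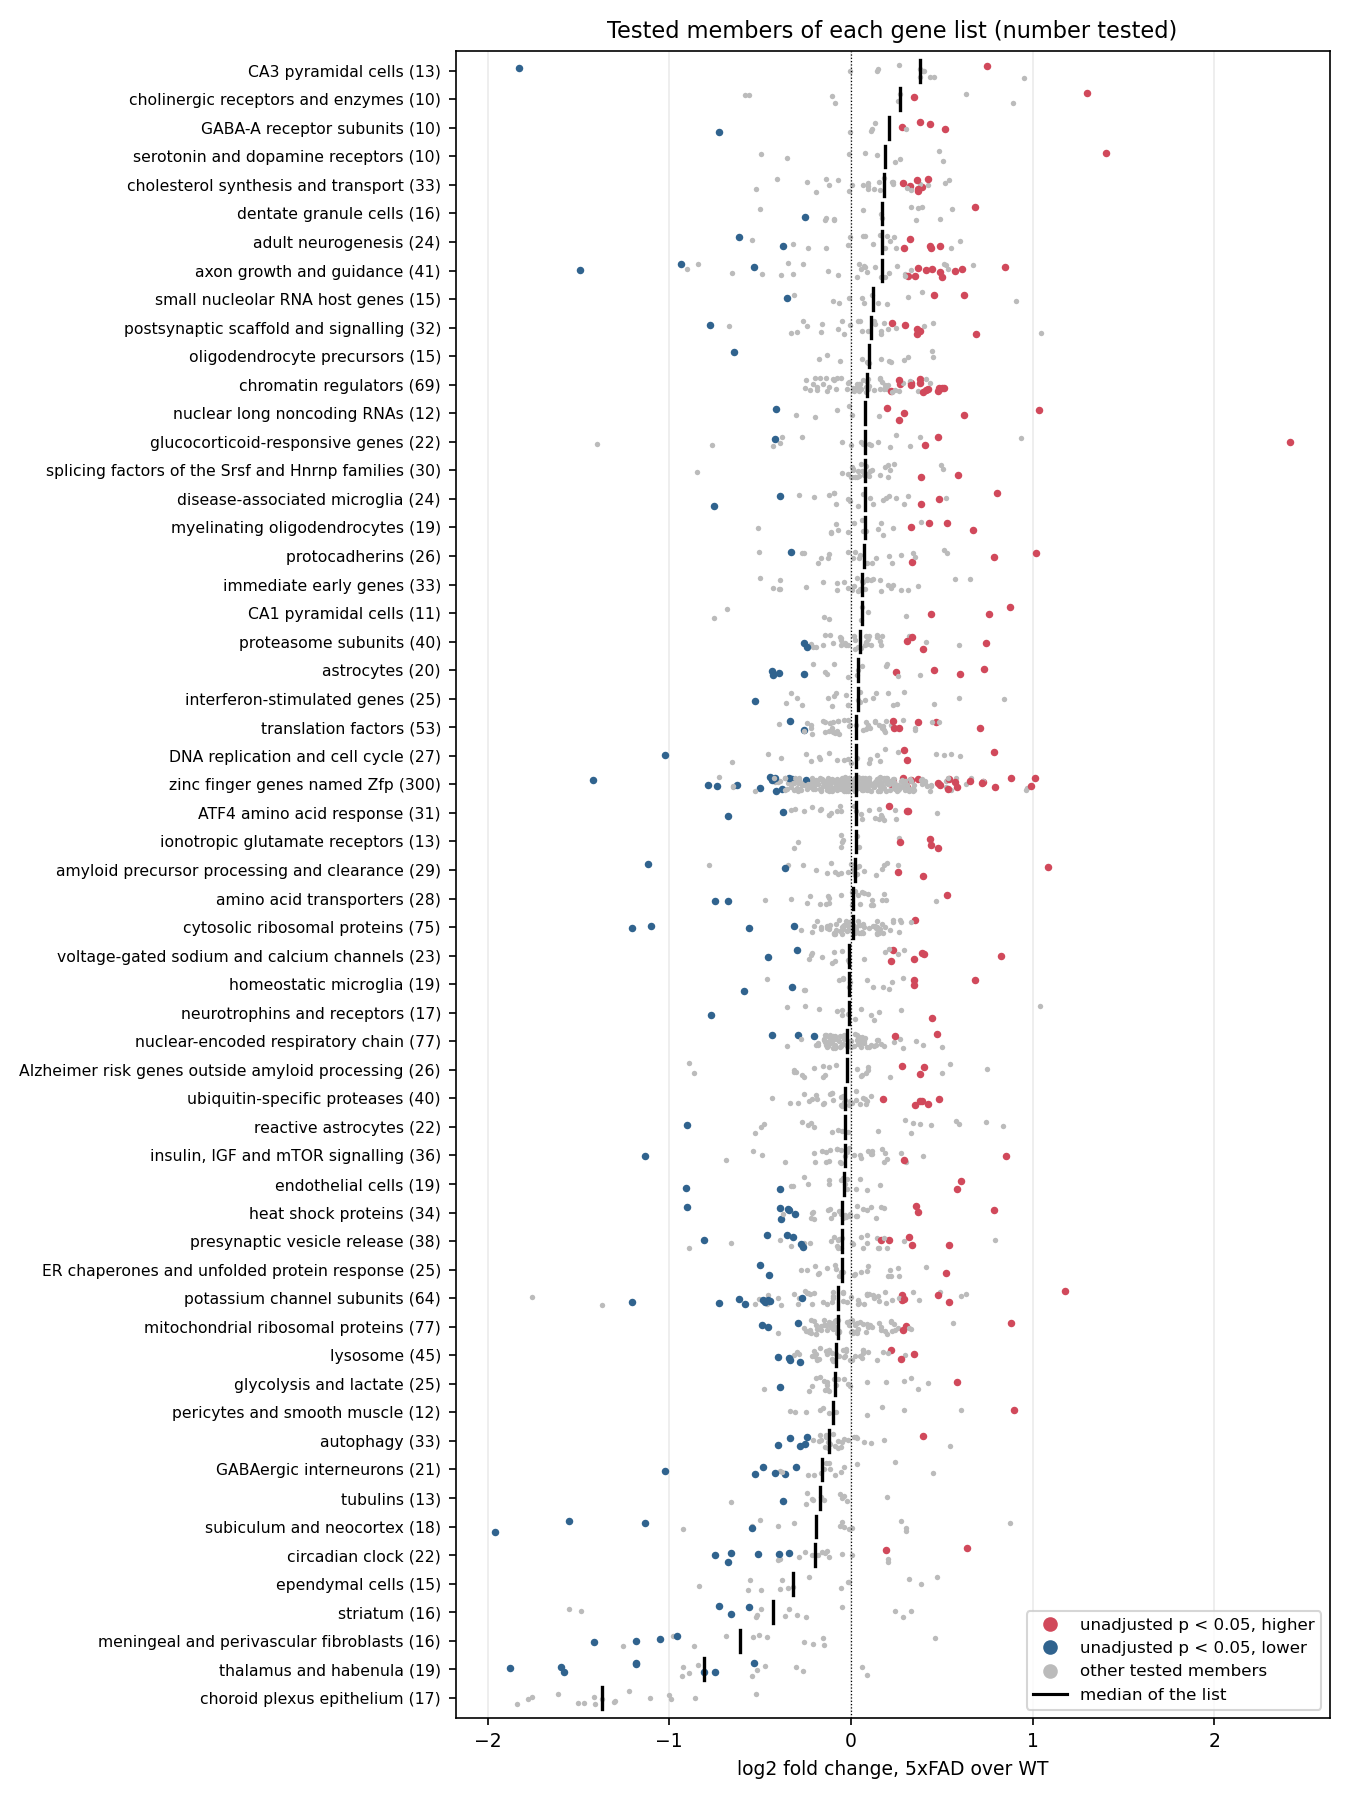
Log2 fold changes of 5xFAD over WT for the tested members of each list with at least 10 tested genes, 1 point per gene, coloured where the unadjusted p was under 0.05, with a black bar at the median of the list. Lists are ordered by median: choroid plexus (-1.37), thalamus and habenula (-0.81) and meningeal fibroblasts (-0.61) lie lowest, and the lists near the top have medians of 0.38 or less.

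The widest displacement was in markers of tissue that adjoins the hippocampus. Of 19 tested thalamus and habenula markers, 8 were nominally lower and none higher, with a median of -0.81. Ramp3, an accessory protein of calcitonin-type receptors, was at 57.2, 62.6 and 46.6 CPM in WT and at 21.9, 19.5 and 13.9 CPM in 5xFAD (log2 -1.58 ± 0.41). Prkcd, protein kinase C delta, was at 139, 297 and 262 CPM in WT and at 86.6, 115 and 106 CPM in 5xFAD. Tnnt1, a troponin used as a thalamic marker, was at 6.43, 14.6 and 11.6 CPM in WT and at 2.21, 4.51 and 2.10 CPM in 5xFAD. The mean log2 CPM over the list was 4.38 to 4.77 in WT and 3.81 to 4.04 in 5xFAD, with no overlap. It was 3.63 to 3.77 in p75NTRko and ran from 3.39 to 4.93 in 5xFAD/p75NTRko, so that the second transgene comparison had 7 members nominally higher and none lower (median 0.62). Leaving out 1 library gave between 2 nominally lower members (without 5xFAD replicate 1) and 11 (without WT replicate 1), with 4 without WT replicate 2 or 5xFAD replicate 3. The median was -0.72 without 5xFAD replicate 1, -0.83 without WT replicate 1 and at its smallest, -0.54, without WT replicate 3.

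Choroid plexus genes spread most between libraries of a genotype. Ttr, the thyroxine carrier transthyretin secreted by the choroid plexus, was at 1948, 2686 and 4873 CPM in WT and at 1500, 1011 and 142 CPM in 5xFAD. Those groups did not overlap, but neither was tight, and the difference of -1.84 ± 1.14 did not pass (unadjusted p = 0.127). All 17 tested members had negative differences (median -1.37), 9 with libraries that did not overlap, and none was nominally lower. The median ran, on leaving out 1 library, from -1.80 (without 5xFAD replicate 1) to -0.80 (without WT replicate 3), and it was -0.94 without 5xFAD replicate 3. With the thalamic level as a term all 17 differences were positive (median 1.14), 3 of them nominally. Meningeal and perivascular fibroblast markers had 4 of 16 nominally lower (median -0.61), among them Mgp, matrix Gla protein, at 93.1, 128 and 205 CPM in WT and 82.2, 99.0 and 37.5 CPM in 5xFAD. None was nominally lower without WT replicate 3 (median -0.26), without 5xFAD replicate 3 (-0.29) or with the thalamic level as a term (0.08), 1 was without 5xFAD replicate 1 and 6 were without WT replicate 1. Of 16 striatal markers 3 were nominally lower (median -0.43): Ppp1r1b, the dopamine-regulated phosphatase inhibitor DARPP-32, was at 54.8, 48.2 and 52.3 CPM in WT and at 38.7, 32.7 and 33.7 CPM in 5xFAD. The opioid precursor Penk and the retinoid receptor Rxrg were the other 2. The striatal count was 5 without WT replicate 3 and 2 to 4 without each of the others. Blood markers passed the filter for 0 of 12 genes, and the 4 haemoglobin genes listed had no counts in these 6 libraries, which allows at most 0.618 CPM in the shallowest. Haemoglobin genes have near-identical copies, and reads that aligned to several places were not counted. The part of adjoining tissue in the gene differences was not tested beyond fits with the thalamic or choroid level as a term, in which Ide alone was called.

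**Figure D3:**
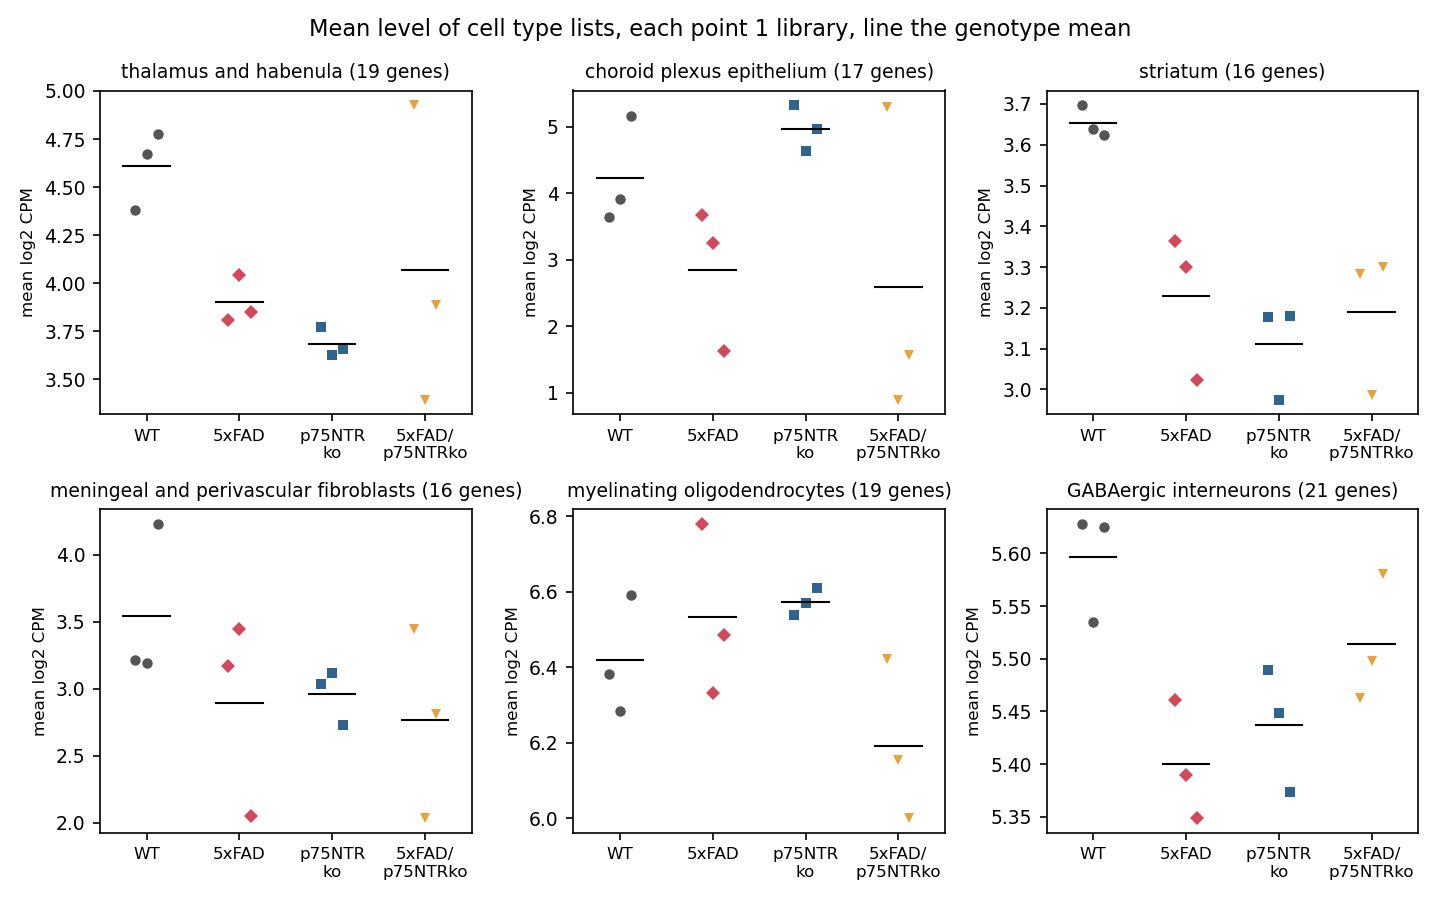
Mean log2 CPM of 6 cell type lists in each of the 12 libraries by genotype, with a line at the genotype mean; the vertical scale differs between panels and does not start at 0. Thalamic and striatal levels are higher in all 3 WT libraries than in all 3 5xFAD libraries, while choroid plexus levels range widely within 5xFAD and within 5xFAD/p75NTRko.

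Markers of the hippocampal fields differed in both directions. CA1 markers had 3 of 11 nominally higher and none lower (median 0.06): Pou3f1, the protease inhibitor gene Spink8 (26.6, 38.6 and 52.8 CPM in WT against 66.9, 55.2 and 77.8 CPM in 5xFAD) and Fibcd1 (63.2, 110 and 97.2 against 119, 100 and 148 CPM). WT replicate 1 was the lowest library for both of the latter. CA2 markers diverged, with Rgs14, a regulator of G-protein signalling that limits plasticity in CA2, at 122, 166 and 165 CPM in WT and 208, 195 and 272 CPM in 5xFAD, while Pcp4, a calmodulin-binding peptide, was at 211, 246 and 224 CPM in WT and 131, 155 and 131 CPM in 5xFAD. Granule cell markers had 1 of 16 nominally higher, Prox1, and 1 lower, Calb1 (calbindin), at 171, 191 and 166 CPM in WT and 137, 162 and 145 CPM in 5xFAD. Of 13 tested CA3 markers 11 were positive (median 0.38), 1 nominally higher and 1 lower, against 4 positive in the second transgene comparison (median -0.05). The nominally higher one was the growth factor gene Tgfb2, at 26.0, 33.9 and 47.5 CPM in WT and 62.7, 57.5 and 59.7 CPM in 5xFAD. The lower one, against the direction of the list, was Coch, at 18.4, 11.04 and 14.3 CPM in WT and 4.42, 6.20 and 1.47 CPM in 5xFAD. Without WT replicate 3, nominally higher members numbered 6 for CA3 and 7 for granule cells, and without WT replicate 1 none in either. Markers of subiculum and neocortex had 4 of 18 nominally lower and none higher (median -0.19), including Foxp2, a forkhead factor of deep cortical and thalamic neurons, at 24.5, 11.2 and 21.6 CPM in WT and 7.47, 5.45 and 6.52 CPM in 5xFAD. That count of 4 was 8 without WT replicate 3 and 2 without WT replicate 1, 5xFAD replicate 1 or 5xFAD replicate 3.

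GABAergic interneuron markers were nominally lower in 6 of 21 and higher in none (median -0.16), and in all 6 the libraries did not overlap. Slc32a1, the vesicular GABA transporter that all GABAergic neurons need, was at 270, 282 and 285 CPM in WT and 239, 208 and 203 CPM in 5xFAD (log2 -0.36 ± 0.0872). Crh, corticotropin-releasing hormone, was at 27.6, 16.6 and 14.1 CPM in WT and 10.4, 8.83 and 9.47 CPM in 5xFAD. Npy, neuropeptide Y, was at 73.5, 55.7 and 52.3 CPM in WT and 39.4, 40.6 and 46.1 CPM in 5xFAD. Sst, somatostatin, was at 326, 311 and 262 CPM in WT and 246, 230 and 255 CPM in 5xFAD, the narrowest of these gaps. On the receptor-labelled background 1 member was nominally higher and none lower (median 0.13). With the Xist pattern as a term none of the 21 was nominally lower (median -0.03), and without WT replicate 1 the count was 2 (median -0.15).

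Among receptors of synapses and dendrites, of 13 ionotropic glutamate receptor genes, 4 were nominally higher and none lower (median 0.03). The AMPA receptor subunit gene Gria2 was at 483, 444 and 624 CPM in WT and 731, 698 and 732 CPM in 5xFAD, and Gria1 at 639, 844 and 1026 CPM against 1109, 1040 and 1238 CPM. The NMDA receptor subunit gene Grin2b and the kainate receptor subunit gene Grik1 were the others, at log2 0.27 ± 0.0993 and 0.44 ± 0.191. Of 10 GABA-A receptor subunit genes, 4 were nominally higher and 1 lower (median 0.21). Gabra5, the extrasynaptic α5 subunit, was at 64.6, 91.0 and 103 CPM in WT and 122, 110 and 139 CPM in 5xFAD, while Gabrd, the δ subunit of granule cells and interneurons, was at 24.1, 17.0 and 12.6 CPM in WT and 8.66, 14.7 and 9.26 CPM in 5xFAD, with overlap. The 4 higher GABA-A genes became 1 without 5xFAD replicate 2 or 3, 2 without WT replicate 1 or 2, and 0 with the Xist pattern as a term, with medians of 0.08 to 0.31 on leaving out 1 library. The 4 higher glutamate receptor genes became 2 without WT replicate 1, WT replicate 2 or 5xFAD replicate 3, and 0 with the Xist pattern.

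Postsynaptic genes had 6 of 32 nominally higher and 1 lower. The lower one was Dlg4, the scaffold protein PSD-95, at 1065, 1105 and 818 CPM in WT and 552, 561 and 632 CPM in 5xFAD (log2 -0.78 ± 0.191). Ppp3ca, the catalytic subunit of calcineurin, was at 3449, 2647 and 4901 CPM in WT and 5767, 5475 and 6468 CPM in 5xFAD, and Camk2b, a calcium/calmodulin-dependent kinase, at 402, 390 and 455 CPM against 520, 504 and 602 CPM. WT replicate 3 lay nearest to 5xFAD for all 3 of these genes. Presynaptic release genes were split, 5 higher and 6 lower of 38: the SNARE gene Vamp1 was at 118 to 138 CPM in WT and 96.0 to 107 CPM in 5xFAD, the vesicle GTPase gene Rab3a at 1388 to 1862 CPM against 1252 to 1361 CPM, and the active zone scaffold gene Erc2 at 182 to 206 CPM against 239 to 242 CPM. Voltage-gated sodium and calcium channel genes had 6 of 23 nominally higher and 2 lower. Cacna2d1, the α2δ-1 subunit that brings calcium channels to the membrane, was at 144, 150 and 137 CPM in WT and 175, 196 and 201 CPM in 5xFAD (log2 0.40 ± 0.0851), and was also nominally higher on the receptor-labelled background (0.26). Scn2a1, a sodium channel of axon initial segments, was at 384, 305 and 316 CPM in WT and 429, 433 and 416 CPM in 5xFAD. Of 64 potassium channel genes, 6 were nominally higher and 9 lower, and of 33 immediate early genes, which follow neuronal activity within minutes, none was nominally different (median 0.06). Without 5xFAD replicate 3 nominally higher members numbered 3 postsynaptic, 1 presynaptic and 3 potassium channel genes. Higher presynaptic genes were 2 without WT replicate 1 and 3 without 5xFAD replicate 2, and lower ones 3 without WT replicate 2 or 5xFAD replicate 3. Without WT replicate 3 nominally lower members numbered 5 postsynaptic, 11 presynaptic and 15 potassium channel genes, and the last were 4 without WT replicate 1 or 5xFAD replicate 1 and 5 without WT replicate 2.

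Glial lists had members on both sides. Astrocyte markers had 4 of 20 nominally higher and 4 lower. Id4, an inhibitor of basic helix-loop-helix factors, was at 101, 77.4 and 161 CPM in WT and 189, 197 and 176 CPM in 5xFAD, and Atp1b2, a sodium pump subunit, at 250, 254 and 230 CPM against 191, 173 and 193 CPM. Of 22 genes of reactive astrocytes, none was nominally higher and 1 lower, and Gfap, their filament protein, was at 105, 109 and 146 CPM in WT and 103, 89.6 and 113 CPM in 5xFAD (log2 -0.24 ± 0.135). Homeostatic microglia markers had 3 of 19 nominally higher and 2 lower: the complement gene C1qa was at 104, 86.7 and 71.8 CPM in WT and 57.1, 58.4 and 58.9 CPM in 5xFAD. The fractalkine receptor gene Cx3cr1 was at 219 to 304 CPM in WT and 249 to 274 CPM in 5xFAD (log2 -0.01 ± 0.114). Without WT replicate 2 none of the homeostatic markers was nominally higher, and 1 was without 5xFAD replicate 1 or 3. Nominally lower astrocyte markers numbered 1 without 5xFAD replicate 1 and 2 without WT replicate 2.

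Genes of disease-associated microglia, a state described around amyloid plaques, had 3 of 24 nominally higher and 2 lower (median 0.08). Fth1, the ferritin heavy chain, was at 1175, 913 and 1221 CPM in WT and 1565, 1339 and 1419 CPM in 5xFAD, and the chemokine gene Ccl6 at 4.03, 4.38 and 6.14 CPM against 8.66, 7.89 and 8.84 CPM. Cd63, a tetraspanin of late endosomes, went the other way, at 412, 486 and 485 CPM in WT and 356, 357 and 343 CPM in 5xFAD. Its difference of -0.39 ± 0.12 was -0.12 ± 0.0957 with the thalamic level and -0.25 with the choroid level as a term. Nominally higher members numbered 5 without WT replicate 3. Of 25 interferon-stimulated genes none was nominally higher and 1 lower. Myelinating oligodendrocyte genes had 4 of 19 nominally higher and none lower (median 0.08), with overlap of the libraries in all 4: Mal was at 188, 176 and 219 CPM in WT and 330, 238 and 218 CPM in 5xFAD, and Mog at 25.3, 21.9 and 32.7 CPM against 52.1, 32.7 and 30.1 CPM, with 5xFAD replicate 1 the highest for both. None of the 19 was nominally higher without 5xFAD replicate 1 (median -0.05) or without WT replicate 2 (0.03), and 1 was without WT replicate 1 or with the Xist pattern as a term (median -0.02). Myelin basic protein, Mbp, was at 943 to 1544 CPM in WT and 1086 to 1465 CPM in 5xFAD. In the second transgene comparison 11 of the 19 were nominally lower (median -0.42).

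Adult neurogenesis genes, which the series title makes its subject, had 5 of 24 nominally higher and 2 lower (median 0.17), against 0 higher and 5 lower on the receptor-labelled background. The differentiation factor gene Neurod2 was at 299, 287 and 405 CPM in WT and 401, 444 and 549 CPM in 5xFAD, and the cell adhesion gene Ncam1 at 571, 699 and 636 CPM against 771, 849 and 765 CPM; mature neurons express both genes too. Without 5xFAD replicate 2 the higher count was 3, and the lower count was 4 without WT replicate 3 and 0 without WT replicate 1, WT replicate 2 or 5xFAD replicate 1. Of 27 DNA replication and cell cycle genes, 3 were nominally higher and 1 lower (median 0.03), with 1 higher without WT replicate 1 or 5xFAD replicate 2. Axon growth and guidance genes had 10 of 41 nominally higher and 3 lower (median 0.17). Among them were Sema3e, a secreted semaphorin, at 34.1, 34.7 and 52.9 CPM in WT and 69.8, 68.9 and 80.2 CPM in 5xFAD, the ephrin receptor gene Epha4 at 295, 301 and 410 CPM against 471, 447 and 577 CPM, and the netrin receptor gene Dcc at 55.6, 64.6 and 80.1 CPM against 88.0, 93.5 and 91.7 CPM. WT replicate 3 was the highest WT library for all 3 genes, and without it 13 were nominally higher and 7 lower, against 6 and 2 without WT replicate 2, with medians of 0.17 and 0.19. Nominally higher axon genes also numbered 6 without 5xFAD replicate 1 or 3.

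Part of the circadian clock genes differed nominally. In the clock loop CLOCK and BMAL1, the product of Arntl, bind E-box elements and drive Per, Cry, Dbp, Tef and Nr1d genes, whose products feed back on them. Of 22 tested clock genes, 6 were nominally lower and 2 higher (median -0.20), and 6 lower and 2 higher had libraries that did not overlap. The higher 2 were Arntl, at 31.4, 15.9 and 36.5 CPM in WT and 47.7, 45.3 and 37.5 CPM in 5xFAD, and Clock, at 130, 112 and 125 CPM against 138, 142 and 139 CPM. Among the lower genes Dbp, a PAR-domain transcription factor, was at 58.3, 43.2 and 53.8 CPM in WT and 26.8, 34.0 and 37.9 CPM in 5xFAD (log2 -0.66 ± 0.19). Nr1d2, the repressor REV-ERBβ, was at 297, 289 and 253 CPM in WT and 175, 210 and 203 CPM in 5xFAD. Cry1, a cryptochrome repressor of the loop, was at 24.8, 21.6 and 20.6 CPM in WT and 13.4, 18.03 and 10.3 CPM in 5xFAD, and Per2 at 43.0, 39.0 and 42.6 CPM against 28.2, 31.2 and 35.6 CPM. Arntl, Clock and Per2 were named after their values were seen. Tef, a relative of Dbp, was at 983, 1246 and 745 CPM in WT and 731, 803 and 810 CPM in 5xFAD, with overlap through WT replicate 3. Rora, a nuclear receptor of the loop that is also a thalamic marker, was at 189, 187 and 177 CPM in WT and 116, 114 and 98.7 CPM in 5xFAD (log2 -0.75 ± 0.211), and at -0.28 ± 0.164 with the thalamic level as a term. Rora is itself among the genes averaged into that level, so a smaller difference there is partly built in.

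The p75NTRko libraries, which lack the transgenes, lay wholly below WT for Dbp, Nr1d2, Cry1, Per2 and Rora and wholly above it for Arntl. Dbp was at 29.8, 26.0 and 38.8 CPM, Cry1 at 14.1, 12.4 and 13.5 CPM and Arntl at 37.1, 36.8 and 43.0 CPM. In the second transgene comparison 6 clock genes were nominally higher and none lower (median 0.22). With the Xist pattern as a term 1 clock gene was nominally higher and 1 lower, while the median was -0.17, and with the thalamic level the counts were 1 and 5 (median -0.25). Lower genes numbered 4 without WT replicate 1 (median -0.09) and 8 without WT replicate 3 (median -0.30). The E-box letters CACGTG, which read the same on both strands, occur in the 250 bases before the start of 5 of 18 clock genes with a window in the RefSeq promoter set of GRCm38.p6, Bhlhe41, Ciart, Cry1, Per1 and Tef, and in a window of 6.86% of all 27025 genes with 1 or more windows (6.02% of 32851 windows). The windows of Cry1 (chr10:85185055-85185304, minus strand) and of Tef at its upstream start (chr15:81802423-81802672, plus strand) and downstream start (chr15:81811164-81811413, plus strand) are shown because they hold those letters, in capitals, and belong to genes that were nominally lower.
Cry1: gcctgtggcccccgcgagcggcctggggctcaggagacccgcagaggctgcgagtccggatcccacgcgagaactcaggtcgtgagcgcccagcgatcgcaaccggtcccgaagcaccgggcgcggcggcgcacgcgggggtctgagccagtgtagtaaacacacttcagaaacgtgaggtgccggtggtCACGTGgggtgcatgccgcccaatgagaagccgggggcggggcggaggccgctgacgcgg
Tef, upstream start: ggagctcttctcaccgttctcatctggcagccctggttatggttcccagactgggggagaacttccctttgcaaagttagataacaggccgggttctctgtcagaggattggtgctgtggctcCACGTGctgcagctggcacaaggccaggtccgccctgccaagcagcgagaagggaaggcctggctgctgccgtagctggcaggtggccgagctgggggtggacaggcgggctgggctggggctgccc
Tef, downstream start: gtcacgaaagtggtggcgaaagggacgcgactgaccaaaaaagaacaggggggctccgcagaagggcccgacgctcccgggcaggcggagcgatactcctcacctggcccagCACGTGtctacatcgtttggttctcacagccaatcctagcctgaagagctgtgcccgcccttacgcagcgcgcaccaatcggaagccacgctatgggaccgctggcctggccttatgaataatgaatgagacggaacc
The letters begin 60 bases before the start in Cry1 and 127 and 138 bases before it in Tef. The windows of Nr1d2, Dbp, Arntl, Clock and Rora do not hold them.

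Some cholesterol synthesis genes were nominally higher in each transgene comparison. Of 33 tested genes of cholesterol synthesis and transport, 7 were nominally higher in 5xFAD and none lower (median 0.18), and on the receptor-labelled background 7 were higher and 1 lower (median 0.16). Of these, 4 were nominally higher in both, and the share of all genes nominally higher in both was not computed. Hmgcs1, the cytosolic HMG-CoA synthase, was at 255, 246 and 286 CPM in WT and 351, 372 and 307 CPM in 5xFAD (log2 0.39 ± 0.1), and at 299, 307 and 314 CPM in p75NTRko against 322, 393 and 367 CPM in 5xFAD/p75NTRko. Msmo1, a sterol C4-methyl oxidase, was at 111, 124 and 120 CPM in WT and 138, 161 and 144 CPM in 5xFAD. For Hmgcs1 and Msmo1 the p75NTRko libraries lay above the WT mean as well. Neither was called by edgeR. With the Xist pattern as a term 1 of the 33 was nominally higher, while the median was 0.14. The count with 1 library left out was 3 (without 5xFAD replicate 2, median 0.13) to 9 (without WT replicate 3, median 0.23).

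SREBP transcription factors turn on this pathway through sterol regulatory elements. The letters TCACNCCAC, searched on both strands, occur before the start of 1 of 24 genes of the list with a window, Hmgcs1, and in a window of 1.22% of all genes with 1 or more windows. Its window is shown as that of the pathway gene with the smallest p-value, chr13:119690101-119690350 on the plus strand, with the matched letters in capitals from 137 bases before the start.
Hmgcs1: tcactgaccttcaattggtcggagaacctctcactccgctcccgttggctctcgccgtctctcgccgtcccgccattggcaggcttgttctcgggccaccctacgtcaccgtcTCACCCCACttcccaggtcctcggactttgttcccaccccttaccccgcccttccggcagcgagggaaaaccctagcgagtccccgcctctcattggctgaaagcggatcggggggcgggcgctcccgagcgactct

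**Figure D4:**
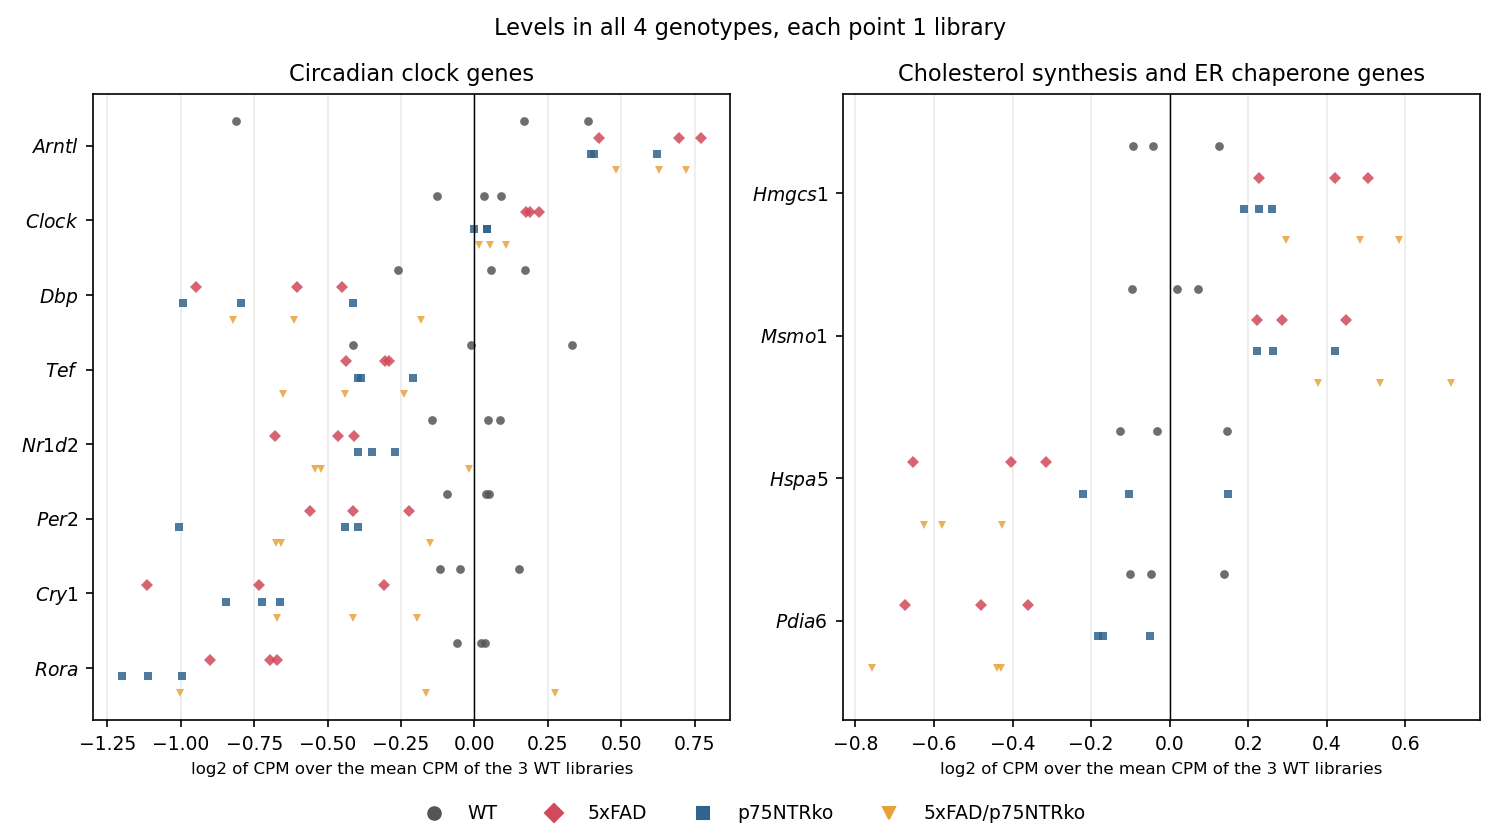
Levels of 8 clock genes (left) and of 2 cholesterol synthesis and 2 endoplasmic reticulum chaperone genes (right) in all 4 genotypes, as log2 of CPM over the mean of the 3 WT libraries, 1 point per library. For Dbp, Cry1 and Rora the p75NTRko libraries lie with 5xFAD below WT, while for Hspa5 and Pdia6 both transgenic genotypes lie below WT and p75NTRko.

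Of 25 endoplasmic reticulum chaperone and unfolded protein response genes, 1 was nominally higher and 2 lower (median -0.05), and 2 chaperones were lower in both comparisons. Hspa5, the chaperone BiP, was at 582, 622 and 703 CPM in WT and 404, 511 and 480 CPM in 5xFAD (log2 -0.45 ± 0.118), and at 704, 591 and 545 CPM in p75NTRko against 472, 412 and 425 CPM in 5xFAD/p75NTRko (log2 -0.49). Pdia6, a protein disulfide isomerase that binds BiP, was at 375, 443 and 390 CPM in WT and 253, 314 and 289 CPM in 5xFAD (log2 -0.50 ± 0.111), and differed by -0.40 on the receptor-labelled background. Neither passed adjustment by edgeR (adjusted p = 0.187 and 0.116). Heat shock protein genes had 3 of 34 nominally higher and 6 lower. The co-chaperone gene Dnajb5 was at 64.7, 63.3 and 141 CPM in WT and 146, 150 and 168 CPM in 5xFAD, and Ahsa1, an activator of HSP90, at 97.6, 124 and 90.1 CPM against 74.9, 77.9 and 85.6 CPM. The 6 lower heat shock genes became 3 without WT replicate 2 or 5xFAD replicate 1.

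Genes of amyloid precursor processing and clearance had 3 of 29 nominally higher (with Ide and App) and 2 lower (median 0.02). Bace2, a homologue of β-secretase, was at 2.84, 5.36 and 2.82 CPM in WT and 2.04, 1.88 and 1.05 CPM in 5xFAD. Clstn1, calsyntenin 1, a transport adaptor that binds App through a partner protein, was at 1223, 1275 and 851 CPM in WT and 816, 889 and 904 CPM in 5xFAD, with overlap. Of 17 genes of neurotrophins and their receptors, 1 was nominally higher and 1 lower, both sortilin family receptors. Sorcs3 was at 52.2, 44.8 and 50.4 CPM in WT and 66.4, 62.4 and 72.6 CPM in 5xFAD (log2 0.45 ± 0.105) and was also nominally higher on the receptor-labelled background (0.38). Sorcs1 was at 18.98, 11.9 and 13.6 CPM in WT and 9.68, 7.32 and 9.05 CPM in 5xFAD. Autophagy genes had 1 of 33 nominally higher and 5 lower (median -0.12): Ulk1, the initiating kinase, was at 134, 115 and 114 CPM in WT and 100, 102 and 97.0 CPM in 5xFAD, and Atg13, its partner, at 36.5, 38.3 and 42.5 CPM against 25.8, 32.7 and 30.3 CPM, while Rb1cc1, the scaffold of the same complex, was at 74.7, 67.0 and 91.1 CPM against 104, 104 and 98.0 CPM. Lower autophagy genes numbered 2 without WT replicate 1, WT replicate 2, 5xFAD replicate 1 or 5xFAD replicate 3, 3 without 5xFAD replicate 2 and 8 without WT replicate 3, with medians of -0.13 to -0.02, and 0 with the Xist pattern as a term (median -0.14). Amyloid processing genes had 5 higher and 5 lower without WT replicate 3, and 1 higher without 5xFAD replicate 1 or 2.

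Chromatin regulators were nominally higher in 14 of 69 (20.3%, beside 7.71% of all genes) with none lower (median 0.09), and 17 had libraries wholly above WT, beside 10.5% of all genes. Some smaller lists with none lower had larger shares, such as ionotropic glutamate receptors (30.8%), CA1 markers (27.3%), cholesterol genes (21.2%) and myelinating oligodendrocyte genes (21.1%). The part of level in these shares was not tested. Crebbp, the acetyltransferase CBP, was at 98.2, 105 and 97.6 CPM in WT and 124, 136 and 137 CPM in 5xFAD (log2 0.40 ± 0.0867). Med13l, of the kinase module of Mediator, was at 116, 104 and 107 CPM in WT and 141, 148 and 168 CPM in 5xFAD, and Chd9, a chromodomain helicase, at 61.1, 56.6 and 62.6 CPM against 73.0, 85.6 and 83.3 CPM. Kdm1a, the lysine demethylase LSD1, was at 26.3, 16.9 and 21.1 CPM in WT and 28.2, 32.1 and 31.6 CPM in 5xFAD. None was called by edgeR. On the receptor-labelled background 4 members were nominally higher and none lower. With the Xist pattern as a term 5 were higher and 1 lower, while the median was 0.11. With 1 library left out the count ran from 8 (without 5xFAD replicate 2) to 18 (without WT replicate 3), with 9 without WT replicate 2, and medians of 0.07 to 0.12.

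Nuclear long noncoding RNAs had 5 of 12 nominally higher and 1 lower. Beside Malat1 these included Snhg14, the transcript that runs antisense through Ube3a, at 25.3, 22.6 and 29.4 CPM in WT and 47.0, 35.1 and 36.4 CPM in 5xFAD, and Kcnq1ot1, an imprinted antisense RNA, at 186, 162 and 215 CPM against 246, 234 and 211 CPM. Peg13, an imprinted RNA, went the other way at 363, 387 and 295 CPM in WT and 231, 271 and 284 CPM in 5xFAD. Such RNAs overlap other genes, so their counts are uncertain. The 5 became 3 without WT replicate 2, WT replicate 3 or 5xFAD replicate 1. Among larger families the median differences were small: 0.01 for 75 cytosolic ribosomal protein genes, of which 1 was nominally higher and 4 lower, -0.02 for 77 nuclear-encoded respiratory chain genes, with 2 and 3, and 0.05 for 40 proteasome subunits, with 4 and 2. Srsf and Hnrnp splicing factors had a median of 0.08, with 26 of 30 positive, 2 nominally higher and none lower.

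Genes of long genomic span were more often nominally higher. Autosomal genes were divided by the span of their annotation into 5 bins of 2510 to 2512 genes. In the shortest bin, spanning up to 8.1 kb, the median difference was -0.039, with 5.25% nominally higher and 7.52% lower. In the longest, from 78.1 to 2271 kb, the median was 0.046, with 11.9% higher and 5.54% lower. In the second transgene comparison the medians of the shortest and longest bins were -0.009 and 0.043. Longer bins also held more abundant genes, with a median level of 17.3 CPM in the shortest and 32.3 CPM in the longest. The part of level in the shares by span was not tested. Each library's mean log2 CPM of the longest bin less that of the shortest was 0.554 to 0.656 in WT and 0.658 to 0.694 in 5xFAD, against 0.561 to 0.619 in p75NTRko and 0.605 to 0.695 in 5xFAD/p75NTRko. The share of reads on no counted gene feature was also higher in 5xFAD than in WT, and its part in this pattern was not tested. The median span was 24.7 kb over all autosomal genes tested, 76.2 kb for chromatin regulators, 155 kb for axon growth and guidance, 319 kb for ionotropic glutamate receptors and 22 kb for cholesterol genes. Dcc spans chromosome 18 from 71253613 to 72351228. By chromosome, the share of genes with a positive difference ran from 43.3% on chromosome 15 to 62.2% on chromosome 13. On chromosome 13, 10.1% of 476 genes were nominally higher and 2.94% lower. The nominally higher share was larger on chromosomes 3 (11.2%) and 12 (10.2%).

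**Figure D5:**
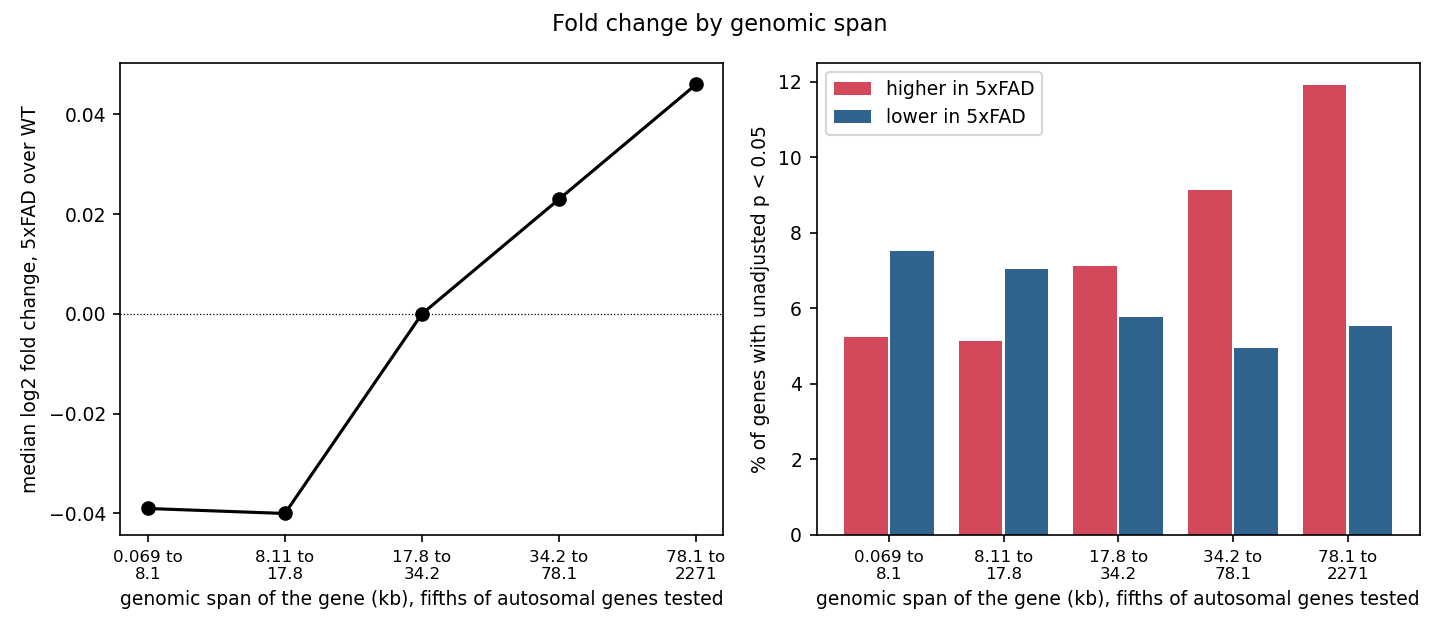
Median log2 fold change of 5xFAD over WT (left) and the percentage of genes with an unadjusted p under 0.05 in each direction (right), by genomic span of the gene in 5 bins of equal size. The 2 shortest bins have medians of -0.039 and -0.040 with 5.25% and 5.14% higher, and from the third bin on both the median and the share of higher genes are larger in bins of longer genes; the median moves by less than 0.1 over the whole range.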

How the data were processed

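Hippocampal RNA was sequenced as 3′ mRNA libraries, per the labels' protocols from RNA with an integrity number above 7 and with 14 amplification cycles. The deposited table holds the authors' raw counts of reads per gene symbol; per the submitters' processing notes FastQC, HISAT2, SAMtools, HTSeq and edgeR were used with build mm10, with versions, annotation and strand setting not given in the sources used here. Its 5 summary lines were left out. Reads on no counted gene feature were 28.9% to 33.5% and reads aligned to several places 9.58% to 12.1% of each library.

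Counts of all 12 libraries were fitted with edgeR 4.0.16 in R 4.3.3 (filterByExpr, TMM factors 0.975 to 1.03, 1 mean per genotype, glmQLFit and glmQLFTest), with Benjamini-Hochberg adjustment over 13065 genes at 0.05. The common biological coefficient of variation was 13.8%. Sex chromosome genes stayed in the fit and are not described. Positions, spans and promoter windows came from RefSeq GRCm38.p6, in which 99.48% of genes matched, 23200 by symbol and 1095 by synonym. A limit for no reads was set at 3 counts, and limits cover counting error only. Log2 CPM used a prior count of 2. P-values measure the spread between these libraries. The procedure was tested on simulated data. These had the same spread in each genotype and no built-in difference in adjoining tissue or sex chromosome expression. That test therefore does not bear on these properties of the libraries.

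Genes named are those called, Thy1, App, Ide, Adra1b and Slc38a2, the 12 higher and 12 lower genes described in the report, and, for each list, up to 4 members with the smallest unadjusted p under 0.05 and the most abundant member; some of these are not reported here. The members and lists were chosen with earlier results of these data known. Alternatives were DESeq2 1.42.0, limma 3.58.1 voom, RLE size factors, other filters, the 6 libraries alone, a replicate block, the Xist pattern (above or below 100 CPM), thalamic or choroid level as a term, adjustment over autosomal genes alone and leaving out each library.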

Additional observations from a re-analysis of the deposited data

Results flagged for a closer look

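The transgene difference of Adra1b, the α1B-adrenergic receptor gene, differed between the 2 receptor backgrounds. It was lower in 5xFAD than in WT (-1.85) and nominally higher in 5xFAD/p75NTRko than in p75NTRko (0.87), a difference of 2.73 on the log2 scale that passed the interaction test of edgeR (adjusted p = 0.0307). Leaving out 1 library, it ran from 2.489 to 3.004, with adjusted p-values from 0.00143 to 0.19. It passed without 5xFAD/p75NTRko replicate 2 or WT replicate 3, when 16 and 2 autosomal genes passed, and it did not pass without any of the other 10 libraries. All WT and 5xFAD/p75NTRko libraries were Xist-high, while all 5xFAD libraries and p75NTRko replicates 2 and 3 were Y-expressing. Receptor background and sex chromosome expression therefore cannot be cleanly told apart in this difference.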

How the results depend on the processing

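The count of 4 autosomal genes called in 5xFAD against WT was 4 with RLE size factors and with a mean of at least 50 counts. It was 87 with DESeq2, 36 with no filter on low counts, 12 with the 6 libraries alone, 1 with limma voom, with adjustment over autosomal genes alone, with the thalamus and habenula level and with the choroid plexus level as a term, and 0 with the Xist class as a term (604 at an unadjusted p under 0.05). Leaving out 1 library gave 1 to 50, with 50 without WT replicate 3, 2 without 5xFAD replicate 3 and 1 in the other 4 cases. Ide was called in each of these except with the Xist class, while Thy1, Adra1b and Slc38a2 were lost wherever the count was 1, and Adra1b and Slc38a2 also without 5xFAD replicate 3. With the replicate block the count was 1. Over all tested genes the deviations of same-numbered 5xFAD and WT libraries correlated at -0.0367, -0.00833 and -0.0997, so no shared deviation was seen at that scale. Whether same-numbered libraries share a factor in some genes was not tested. The interaction count of 1 became 20 with DESeq2, 0 with the replicate block, 0 with adjustment over autosomal genes alone, and 0 to 16 on leaving out 1 library. The cause of these changes was not tested. Of the genes described in the report, direction changed for Ttr (1.37) and Tnnt1 (0.15) with the thalamic level as a term, as it did for Enpp2 (0.47), another choroid plexus gene, and for Npy (0.012) with the Xist class. Tnnt1 is itself among the genes averaged into the thalamic level. Over the 247 genes examined by name, printed or not, direction changed for 13 with the Xist class, among them Opalin (from 0.67 to -0.59, one of the 4 nominally higher myelin genes), Slc2a1 (from -0.39 to 0.34), Hspb1 (from -0.90 to 0.11) and Atf4 (from -0.17 to 0.13), for 10 with the thalamic level and for 6 with the choroid level. The effect of the Xist class rests on p75NTRko replicate 1 against replicates 2 and 3, where Opalin was at 15.9 CPM against 40.2 and 36.3 CPM. Cx3cr1 turned to 0.003 with limma voom, and on leaving out 1 library it ran from -0.129 to 0.112 and Mbp from -0.153 to 0.186. Depth limits genes of a few CPM, such as Bace2, Iyd and Prox1.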
